A study of Mus musculus with 12 samples.

Results

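Neuronal RNA-binding proteins were followed through 10 genes, Celf4, Celf5, Elavl2, Elavl3, Elavl4, Rbfox1, Rbfox3, Nova1, Nova2 and Khdrbs2, chosen by symbol from the 55809 gene symbols of the deposited count tables. All 10 had a row in both tables. The tables hold read counts of 12 libraries of sorted mouse cells, in 4 groups of 3. TOM positive cells and TOM negative cells came from the hypothalamus of untreated Mc4r-Cre; Ai14 mice aged 4 weeks. In these mice Cre is made where the Mc4r gene is used, and Ai14 turns on the red reporter tdTomato (TOM) for good in cells that have made Cre. AAV-Cre cells and AAV-GFP cells came from mice 26 weeks old with the genotype Otp fl/fl; Ai14, whose paraventricular nucleus (PVH) was taken 12 weeks after an adeno-associated virus (AAV) was injected. The AAV-Cre cells were sorted for TOM and the AAV-GFP cells for GFP, so both AAV groups carry the floxed Otp gene and the reporter allele, and they differ in virus and in sorting colour. The sources used here give neither the promoter of the viruses nor whether a library came from 1 animal or a pool. The p-values therefore reflect the spread among libraries alone, and that spread may be technical.

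The members belong to 5 families of proteins that bind RNA in neurons and steer splicing, mRNA stability and translation. Elavl proteins (Hu proteins) bind AU-rich and U-rich stretches, Rbfox proteins bind GCAUG and regulate neuronal exons, and Nova proteins bind clusters of UCAU-like motifs through KH domains. Celf proteins bind GU-rich RNA, and Khdrbs2 is a STAR family protein that regulates splicing of neurexin transcripts. Rbfox3 is the antigen of the NeuN antibody, which is used to stain neuronal nuclei, and Elavl proteins are used as markers of postmitotic neurons.

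Promoter windows of the members were read from RefSeq (GRCm38.p6), each 300 bases long, with 250 bases before and 50 after a transcript start. Of the 10 members 9 matched, with 22 windows in all. Celf4 did not match. The motifs searched on both strands were GGGCGG (GC box), CCAAT and TATAAA, which do not overlap each other in the windows shown, and CG dinucleotides were counted. GGGCGG was in 11 of the 22 member windows, from 5 members, and in 35.7% of all 32851 windows. CCAAT was in 12 member windows, from 6 members, against 37.4% of all windows. TATAAA was in 1 member window, that of Elavl3, against 13.6% of all windows. The member windows held a median of 15.0 CG dinucleotides (3 to 29), against a median of 7 over all windows. Some windows of Elavl2 and of Elavl4 overlap each other, so they are not independent. Of the 5 members with a single window, 3 are shown. Elavl3 is the member with a window that passed the test between TOM positive and TOM negative cells, and Nova1 and Nova2 are a pair of paralogs of which Nova1 alone had TOM groups that did not overlap. Capitals mark these 3 motifs on either strand.
Elavl3, minus strand, chr9:22051974-22052273: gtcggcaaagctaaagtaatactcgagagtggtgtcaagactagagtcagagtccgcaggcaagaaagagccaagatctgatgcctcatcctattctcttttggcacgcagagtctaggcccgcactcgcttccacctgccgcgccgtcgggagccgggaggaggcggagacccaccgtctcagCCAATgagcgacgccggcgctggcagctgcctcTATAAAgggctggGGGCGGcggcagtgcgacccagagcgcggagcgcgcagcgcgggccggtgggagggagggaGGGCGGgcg
Nova1, minus strand, chr12:46818718-46819017: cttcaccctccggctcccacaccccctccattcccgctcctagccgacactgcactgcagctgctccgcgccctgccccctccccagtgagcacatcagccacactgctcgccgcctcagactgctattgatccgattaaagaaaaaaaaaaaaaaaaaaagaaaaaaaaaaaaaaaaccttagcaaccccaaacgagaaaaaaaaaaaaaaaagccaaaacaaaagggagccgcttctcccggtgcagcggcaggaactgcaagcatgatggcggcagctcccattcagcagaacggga
Nova2, plus strand, chr7:18925638-18925937: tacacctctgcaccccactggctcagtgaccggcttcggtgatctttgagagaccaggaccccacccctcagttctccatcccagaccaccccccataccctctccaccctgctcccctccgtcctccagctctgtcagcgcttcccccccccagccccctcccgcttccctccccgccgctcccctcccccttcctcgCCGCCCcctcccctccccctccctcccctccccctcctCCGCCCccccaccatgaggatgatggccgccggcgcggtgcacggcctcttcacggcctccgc
The Elavl3 window held 29 CG dinucleotides, 2 GC boxes, 1 CCAAT and 1 TATAAA. The Nova2 window held 17 CG dinucleotides and 2 GC boxes, and the Nova1 window 14 CG dinucleotides and none of the 3 motifs. These matches describe letters and not binding.

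Library totals ran from 17727134 to 27827853 counts for TOM positive, 22379648 to 23002571 for TOM negative, 13506018 to 15125868 for AAV-Cre and 14545566 to 19245171 for AAV-GFP cells. The 10 members together made up 0.0222% to 0.0231% of a TOM positive library and 0.00245% to 0.00339% of a TOM negative library. They made up 0.114% to 0.12% of an AAV-Cre library and 0.0643% to 0.11% of an AAV-GFP library. The study's design text calls the TOM positive and the AAV cells neurons. Mc4r itself had 63, 0 and 0 counts in TOM positive libraries and none in TOM negative ones. A list of 20 pan-neuronal genes that holds no RNA-binding protein made up 0.14% ± 0.0162 of the TOM positive and 0.0493% ± 0.00515 of the TOM negative libraries (SD, n = 3 each). Of its 20 genes 11 rose and 0 fell in TOM positive cells, against 10.4% and 13.4% of all genes tested. Among the 11 were Mapt (microtubule binding), Snap25 (vesicle fusion) and Syn1 (vesicle tethering), with log2 fold changes of 1.35 ± 0.18, 3.59 ± 0.54 and 1.80 ± 0.28. Over the same libraries, 12 oligodendrocyte markers made up 9.84% ± 0.592 in TOM positive and 2.14% ± 0.291 in TOM negative cells, with a summed share of 9.15% to 10.2% in TOM positive and 1.81% to 2.36% in TOM negative libraries. All 12 rose and none was at 0 in either group. Microglia markers made up 0.0719% of TOM positive and 2.58% of TOM negative libraries, and all 12 fell. Blood genes made up 0.0375% against 3.2%, and all 5 fell. Endothelial markers made up 0.00412% against 0.0387%, with 4 of 9 lower. Astrocyte markers made up 1.24% against 1.81%, with 2 of 10 lower, and oligodendrocyte precursor markers 0.358% against 0.173%, with 5 of 9 higher. The part of these cell types in the members' values was not tested. Mitochondrially encoded genes made up 0.984%, 0.902% and 0.614% of the TOM positive libraries, against 0.27%, 0.232% and 0.228% of the TOM negative ones, and 7.2% of AAV-GFP replicate 3. Celf4 and Elavl3 passed also in the fit without these genes. Otp, the gene targeted by AAV-Cre, had 12, 9 and 10 counts in AAV-Cre and 91, 102 and 38 counts in AAV-GFP libraries, the direction of the labels, and did not pass (edgeR adjusted p = 0.134). The AAV-GFP replicate 2 library stood apart from the other libraries of its group, with a chi-square per degree of freedom of 248 and 261 against replicates 1 and 3, which had 135 between them.

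Levels are given as CPM, counts scaled to a common library size, and as CPM per kb of exon where different genes are compared. The TOM and AAV tables were scaled separately and differ in age, region and genotype, so their levels are set side by side without a test. Celf4 was at the top of the order in 3 of the 4 groups. It averaged 10.3 ± 2.86 CPM per kb in TOM positive, 109 ± 5.58 in AAV-Cre and 94 ± 30.8 in AAV-GFP cells, and was the fifth in TOM negative cells with 0.559 ± 0.148 CPM per kb (SD, n = 3 each). There Elavl3 led with 1.34 ± 0.297 CPM per kb, all 3 of its libraries lying above those of Nova1, the next gene. In both AAV groups the lowest Celf4 library lay above every library of the next gene, by a ratio of mean levels of 15.7 to Elavl4 in AAV-Cre and 12.3 to Rbfox1 in AAV-GFP cells. In TOM positive cells Celf4 and Elavl3, with 8.91 ± 1.51 CPM per kb, overlapped, and both lay above Elavl4 with 2.86 ± 0.482. From Elavl4 down through Rbfox1, Nova1, Rbfox3, Elavl2, Khdrbs2 and Nova2, each gene of TOM positive cells overlapped the next in its 3 libraries. In AAV-Cre cells Elavl4, Rbfox3, Rbfox1 and Elavl3 followed Celf4, between 6.93 ± 3.46 and 4.92 ± 0.339 CPM per kb, and neighbours in that run overlapped. Rbfox1, Rbfox3, Elavl4 and Elavl3 followed in AAV-GFP cells, between 7.66 ± 2.63 and 3.74 ± 1.19 CPM per kb, and again neighbours overlapped. Celf5 was lowest in every group, with 0.00339 ± 0.00586 CPM per kb in TOM positive, 0.0324 ± 0.05 in TOM negative, 0.107 ± 0.0491 in AAV-Cre and 0.545 ± 0.378 in AAV-GFP cells, and only in TOM positive cells was it clear of the gene above it, Nova2.

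**Figure D1:**
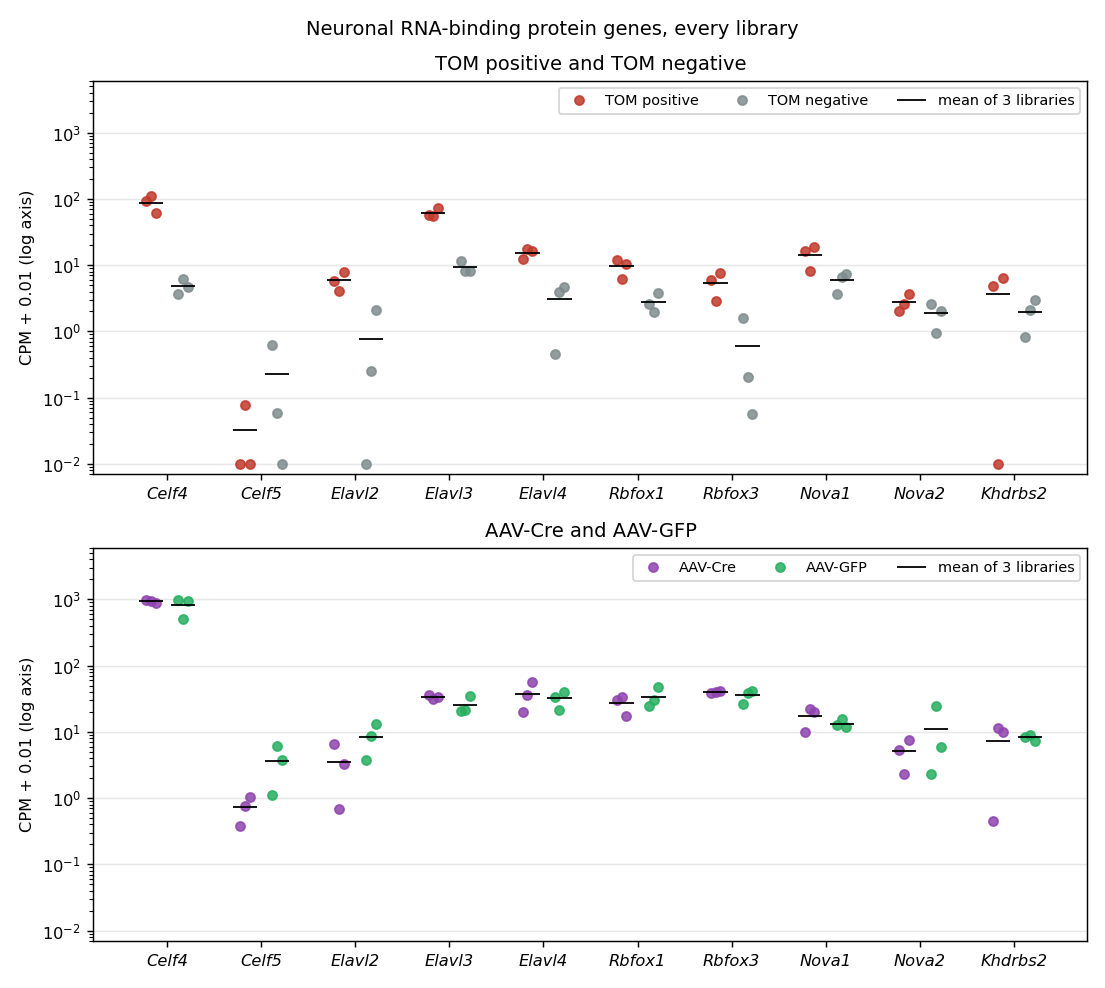
CPM of the 10 members in each library, plotted as CPM + 0.01 on a log axis, for TOM positive and TOM negative cells (upper) and AAV-Cre and AAV-GFP cells (lower). Points are libraries and black lines the means of 3; a point at 0.01 is a library with no count. Celf4 and Elavl3 stand clear between the TOM groups, and Celf4 lies far above the other members in both AAV groups.

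The first comparison asked how TOM positive cells differ from TOM negative cells. Of the 9 members that passed the count filter, 2 rose (Celf4 and Elavl3), 0 fell and 7 did not pass. The test was edgeR's quasi-likelihood test with Benjamini-Hochberg adjustment over 15228 genes, of which 23.9% passed, with 10.4% on the higher and 13.4% on the lower side. The split was 1589 higher and 2046 lower genes, and 2204 and 1532 when no scaling factors were used, and the members that passed were Celf4, Elavl3 and Rbfox1. The estimate was above 0 for each of the 9 tested members, with a median log2 fold change of 2.34, against -0.02 over all genes tested. In 7 of the 10 members every TOM positive library lay above every TOM negative one, against 20.8% of the genes tested that did so and 25.6% that did so in the other direction, 46.4% in all. DESeq2 called 5 members (Celf4, Elavl3, Elavl4, Rbfox1 and Rbfox3), all higher, and 31.6% of all genes. Limma voom called 3 members (Celf4, Elavl3 and Elavl4) and 27.5% of all genes. In bulk libraries, fewer cells of a type and less RNA per cell cannot be told apart. Celf4 and Elavl3 passed in all 6 fits that left out a library.

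Among Celf genes, Celf4 (chromosome 18, 25610689 to 25887214, minus strand, GENCODE vM30) encodes a regulator of splicing and translation that is abundant in excitatory neurons. It had 94.3, 109 and 61.1 CPM in the TOM positive libraries, against 3.62, 6.15 and 4.63 CPM in the TOM negative ones. The groups were far apart, and TOM positive replicate 3 was the lowest of its group. The log2 fold change was 4.20 ± 0.35 (edgeR adjusted p = 0.000411), an 18.3-fold difference with a 95% interval of 10.4 to 32.2. Celf5 (chromosome 10, 81295061 to 81318543, minus strand), a brain-enriched paralog of Celf4, was close to absent. Its 3 TOM positive libraries had 0, 2 and 0 counts, and its TOM negative libraries 12, 1 and 0. It did not enter the test, and the ratio of summed counts after scaling was 0.122 with an exact 95% interval of 0.0133 to 0.537, for counting error only. Of the 13 TOM negative counts, 12 came from replicate 1.

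Elavl3 (HuC; chromosome 9, 21926301 to 21963319, minus strand) encodes an mRNA-stabilizing and splicing protein of differentiated neurons. It had 56.3, 54.5 and 73.3 CPM in the TOM positive libraries, against 11.6, 8.09 and 8.07 CPM in the TOM negative ones. The libraries of each group lay close together, with no overlap. The log2 fold change was 2.73 ± 0.29 (edgeR adjusted p = 0.00102), a 6.63-fold difference with a 95% interval of 4.17 to 10.5.

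Elavl4 (HuD; chromosome 4, 110060919 to 110209106, minus strand), which binds mRNAs of axon growth and plasticity, had 12.5, 17.5 and 16.2 CPM in TOM positive libraries. The TOM negative libraries had 0.453, 3.97 and 4.72 CPM, and the low value was that of replicate 1. The groups did not overlap, and the log2 fold change of 2.34 ± 0.82 did not pass (edgeR adjusted p = 0.0807). It passed with DESeq2 (adjusted p = 0.0152) and limma voom (adjusted p = 0.0322).

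Elavl2 (HuB; chromosome 4, 91139000 to 91289022, minus strand), the Hu gene that is also used outside neurons, in germ cells, had 5.8, 4.12 and 7.88 CPM in TOM positive libraries. In TOM negative libraries it had 0, 0.242 and 2.06 CPM, so that most of the signal of that group lay in replicate 3. No TOM negative library reached a TOM positive one, and the log2 fold change of 2.94 ± 1.50 did not pass (edgeR adjusted p = 0.209). The 95% interval of the fold ran from 0.667 to 88.

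Rbfox1 (chromosome 16, 5703219 to 7229390, plus strand) spans 1526.2 kb, the longest of the members, with 4400 bases of exon. It had 12.1, 6.2 and 10.3 CPM in TOM positive libraries, against 2.62, 1.94 and 3.76 CPM in TOM negative ones. The groups did not overlap, with a log2 fold change of 1.78 ± 0.59 that did not pass (edgeR adjusted p = 0.0688). It passed without TOM positive replicate 2 (edgeR adjusted p = 0.0474), without scaling factors (edgeR adjusted p = 0.0449) and with DESeq2 (adjusted p = 0.0226).

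Rbfox3 (NeuN; chromosome 11, 118380588 to 118802423, minus strand) had 5.95, 2.83 and 7.52 CPM in TOM positive libraries. The TOM negative libraries had 1.56, 0.194 and 0.0458 CPM, or 31, 4 and 1 counts. The TOM negative signal lay almost wholly in replicate 1, and the groups did not overlap. The log2 fold change of 3.17 ± 1.31 did not pass (edgeR adjusted p = 0.126). Without TOM negative replicate 1 it was 5.44 and passed (edgeR adjusted p = 0.0425), and it passed with DESeq2 (adjusted p = 0.0459).

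Nova1 (chromosome 12, 46741300 to 46865712, minus strand), a splicing regulator named as an autoimmune antigen in human disease, had 16.4, 8.11 and 18.8 CPM in TOM positive libraries. It had 3.72, 6.68 and 7.43 CPM in TOM negative libraries. The lowest TOM positive library, replicate 2, lay just above the highest TOM negative one, and the log2 fold change of 1.28 ± 0.53 did not pass (edgeR adjusted p = 0.127).

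Nova2 (chromosome 7, 18659813 to 18699244, plus strand), its paralog, had 2.05, 2.62 and 3.63 CPM in TOM positive libraries, against 2.62, 0.92 and 2.02 CPM in TOM negative ones. The groups overlapped (log2 fold change 0.58 ± 0.79, edgeR adjusted p = 0.646), and the 95% interval of the fold, 0.416 to 5.37, includes differences in either direction. Khdrbs2 (chromosome 1, 32211795 to 32697649, plus strand) was read 93, 0 and 191 times in the TOM positive libraries, against 16, 44 and 64 times in the TOM negative ones. The absence of reads in TOM positive replicate 2 stands against the highest counts of all in replicate 3. Its log2 fold change was 0.92 ± 1.60 (edgeR adjusted p = 0.729), and with limma voom it was -1.36.

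**Figure D2:**
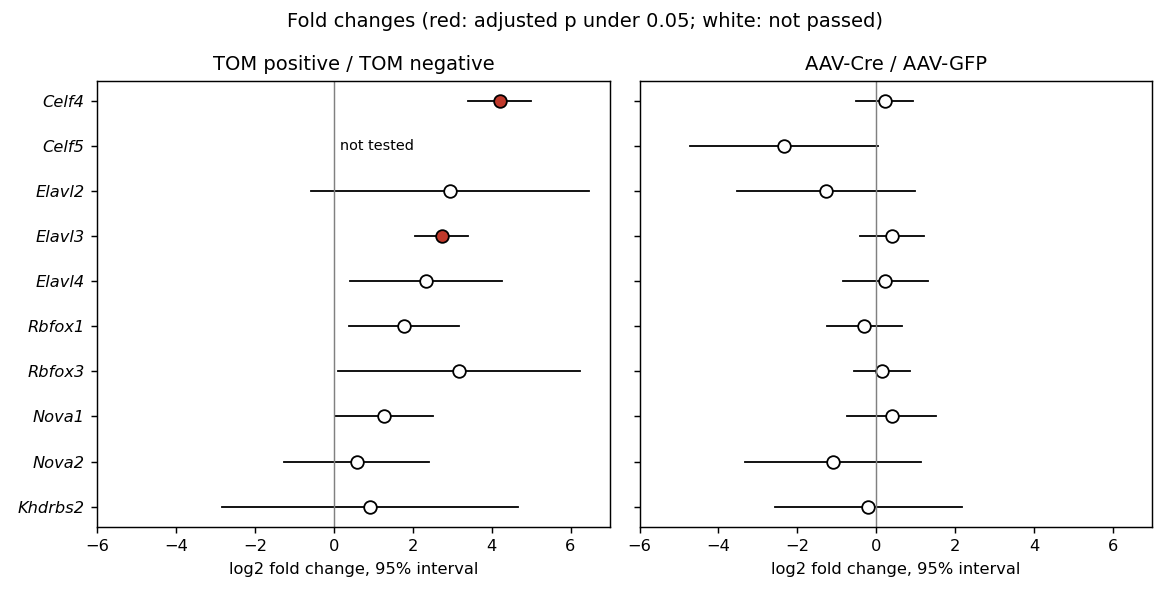
Log2 fold change of each member with its 95% interval from edgeR's quasi-likelihood fit, for TOM positive over TOM negative cells (left) and AAV-Cre over AAV-GFP cells (right). Red points passed the adjusted p threshold and white points did not; the red points are Celf4 at 4.20 and Elavl3 at 2.73, both on the left.

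The other comparison set PVH cells that had received AAV-Cre against those that had received AAV-GFP, to look for the molecular basis of weight gain. All 10 members passed the count filter and 0 passed the test with edgeR, DESeq2 or limma voom, where DESeq2 called 9.94% and limma voom 2.81% of all genes. Over the 15408 genes tested with edgeR 2.6% passed, 0.63% higher and 1.97% lower in AAV-Cre cells. The split was 97 higher and 303 lower genes, and 127 and 241 when no scaling factors were used. At an unadjusted p under 0.05 the count of members was 0 with edgeR, 1 with DESeq2 (Celf5) and 0 with limma voom, against 18.8%, 21% and 21.7% of all genes with these tools. The members split evenly, with 5 estimates above and 5 below 0, and a median log2 fold change of -0.03 against -0.16 over all genes tested. Without AAV-GFP replicate 2, the library that stood apart, the log2 fold changes ran from -1.75 for Celf5 to 0.50 for Nova1. In that fit 0.0124% of all genes passed, so that no member passed says nothing about the members. Groups did not overlap for 1 member, Celf5, which was lower in AAV-Cre cells, against 18.6% of genes tested that were lower and 9.85% that were higher without overlap, 28.5% in all.

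Celf4 had 981, 937 and 885 CPM in AAV-Cre libraries, against 962, 502 and 958 CPM in AAV-GFP ones. AAV-GFP replicate 2 was the lone low library. The log2 fold change was 0.21 ± 0.31 (edgeR adjusted p = 0.785), with a 95% interval of the fold of 0.698 to 1.92, and it was -0.05 without that library.

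Celf5 had 6, 11 and 15 counts in AAV-Cre and 21, 85 and 53 counts in AAV-GFP libraries. The highest AAV-Cre library, at 1.03 CPM, lay just under the lowest AAV-GFP library, at 1.09 CPM. The log2 fold change of -2.34 ± 1.02 did not pass (edgeR adjusted p = 0.272), and its 95% interval ran from -4.72 to 0.04.

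In AAV-Cre cells Rbfox3 had the smallest coefficient of variation of the members, with 38.5, 39.4 and 40.7 CPM in AAV-Cre libraries, against 26.4, 39.1 and 42 CPM in AAV-GFP ones. The coefficient of variation was 2.9% in AAV-Cre and 23.2% in AAV-GFP cells, and in AAV-GFP cells Khdrbs2 (10.3%) and Nova1 (14.7%) varied less. The log2 fold change was 0.14 ± 0.30, and the 95% interval of the fold was 0.677 to 1.8. Elavl3, at 36.3, 31.6 and 33.7 CPM in AAV-Cre and 20.5, 21.7 and 35.2 CPM in AAV-GFP libraries, overlapped through AAV-GFP replicate 3. Its log2 fold change was 0.39 ± 0.35, with a 95% interval of the fold of 0.753 to 2.3.

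Elavl4 ranged more widely, with 19.6, 35.6 and 56.8 CPM in AAV-Cre and 33.7, 21.4 and 40.5 CPM in AAV-GFP libraries. The AAV-GFP values lay inside the range of the AAV-Cre ones (log2 fold change 0.23 ± 0.46). Rbfox1 had 30.7, 33.9 and 17.4 CPM in AAV-Cre and 24.4, 30 and 46.7 CPM in AAV-GFP libraries, with a log2 fold change of -0.30 ± 0.41. Nova1 had 9.79, 22 and 20.1 CPM in AAV-Cre and 12.6, 15.4 and 11.7 CPM in AAV-GFP libraries, with a log2 fold change of 0.39 ± 0.49. For Rbfox1 and Nova1 the groups overlapped.

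Elavl2 had 106, 10 and 47 counts in AAV-Cre and 72, 121 and 184 counts in AAV-GFP libraries (log2 fold change -1.27 ± 0.97, edgeR adjusted p = 0.542). Nova2 had 85, 34 and 110 counts in AAV-Cre and 45, 335 and 85 counts in AAV-GFP libraries. Its high AAV-GFP value was that of replicate 2, and its log2 fold change was -1.10 ± 0.96 with and 0.27 without that library. Khdrbs2 had 7, 166 and 143 counts in AAV-Cre and 164, 124 and 104 counts in AAV-GFP libraries. The AAV-Cre replicate 1 library was the low one, and the log2 fold change was -0.20 ± 1.02 with and 0.35 without it.

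The variance of scaled counts over their mean, which is 1 for counting error alone, was above 1 for every member and group except Rbfox3 in AAV-Cre cells (0.501), and reached 1403 for Celf4 in AAV-GFP cells. The coefficient of variation was highest for Celf5, at 173% in TOM positive and 154% in TOM negative cells, followed by Elavl2 (147%) and Rbfox3 (139%) in TOM negative and Nova2 (108%) in AAV-GFP cells. AAV-Cre libraries also had more gene symbols without a count, 38821 to 41062, than AAV-GFP libraries, 31907 to 35031.

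Within families, levels per kb were compared as shares of the family total in each library. Elavl3 held 71.2% ± 2.94 of the Elavl2, Elavl3 and Elavl4 total in TOM positive and 68.9% ± 23.3 in TOM negative cells (SD, n = 3 each). Its share in TOM positive libraries was 73%, 67.8% and 72.9%, against 95.3%, 60.5% and 51% in TOM negative ones, so the TOM negative libraries spread on both sides of the TOM positive ones. In the PVH groups Elavl4 held 54.3% ± 15 in AAV-Cre and 55.4% ± 8.26 in AAV-GFP cells, and Elavl3 held 42% ± 11.7 and 35.1% ± 3.94. Elavl2 was the smallest part of the family in all 4 groups, between 3.79% ± 3.91 in AAV-Cre and 9.5% ± 4.33 in AAV-GFP cells.

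Rbfox3 held 29.4% ± 5.28 of the Rbfox1 and Rbfox3 total in TOM positive and 13% ± 15.9 in TOM negative cells. In the PVH groups it held 53.1% ± 9.42 in AAV-Cre and 45% ± 4.57 in AAV-GFP cells, close to equal parts with Rbfox1. Nova1 was the larger part of the Nova1 and Nova2 total in 11 of 12 libraries, the exception being AAV-GFP replicate 2 with 37.8%. Its share averaged 82.1% ± 6.91 in TOM positive, 74.3% ± 15.2 in TOM negative, 75.3% ± 13.5 in AAV-Cre and 62.3% ± 23.1 in AAV-GFP cells. Of 12 exact permutation tests of shares between the groups of a comparison (two-sided), the smallest p was 0.20, or 0.80 after Benjamini-Hochberg adjustment, and 3 libraries against 3 cannot go below 0.10. The TOM and PVH cells were not tested against each other.

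**Figure D3:**
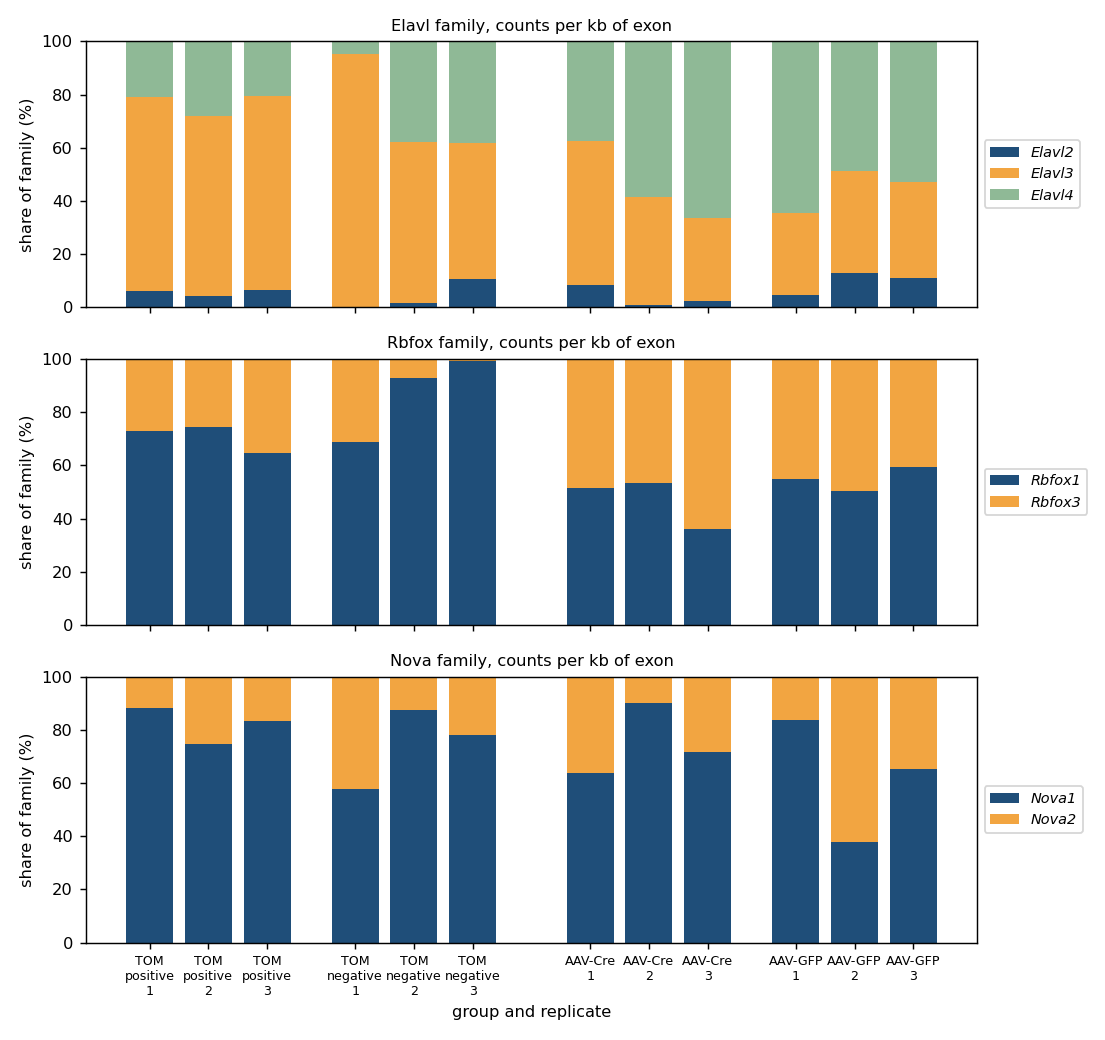
Share of each member in its family in every library, from counts per kb of exon, as stacked bars that sum to 100%, for the Elavl, Rbfox and Nova families. Elavl3 is the largest part in all TOM libraries, Elavl4 in 5 of the 6 AAV libraries, and Nova1 is the smaller part in AAV-GFP replicate 2 alone.

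The members were also set beside the list of 20 pan-neuronal genes in the same library. The genes of that list differed between TOM groups, with log2 fold changes of 3.59 ± 0.54 for Snap25 and 1.35 ± 0.18 for Mapt. The median was 1.59 for the list and 2.34 for the members. The sum therefore stands for these 20 genes and not for all neuronal mRNA. The summed CPM of the 10 members was 14.6%, 17.7% and 16.6% of that of the 20 pan-neuronal genes in TOM positive libraries, against 4.7%, 5.2% and 7.81% in TOM negative ones. All TOM positive libraries were higher, by 1.50 on the log2 scale (exact permutation p = 0.10, the smallest that 3 against 3 allows, and 0.20 adjusted over the 2 comparisons). Without Celf4, which supplies much of the sum, the shares were 9.34% ± 2.04 and 5.01% ± 1.55, a difference of 0.92 (exact permutation p = 0.10), chosen after seeing the data. The difference was 1.15 when the pan-neuronal sum left out Rtn1, its highest gene, and 0.57 without Celf4 and Rtn1, where the groups overlapped (exact permutation p = 0.30). In the PVH groups the members came to 24.9%, 29.8% and 29.4% in AAV-Cre and 38.3%, 19.2% and 24.4% in AAV-GFP libraries. AAV-GFP lay on both sides of AAV-Cre, and the log2 difference was 0.10 (exact permutation p = 0.70) and -0.13 without AAV-GFP replicate 2. Without Celf4 it was 4.4% ± 1.02 in AAV-Cre and 4.65% ± 0.331 in AAV-GFP cells (SD, n = 3 each).

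**Figure D4:**
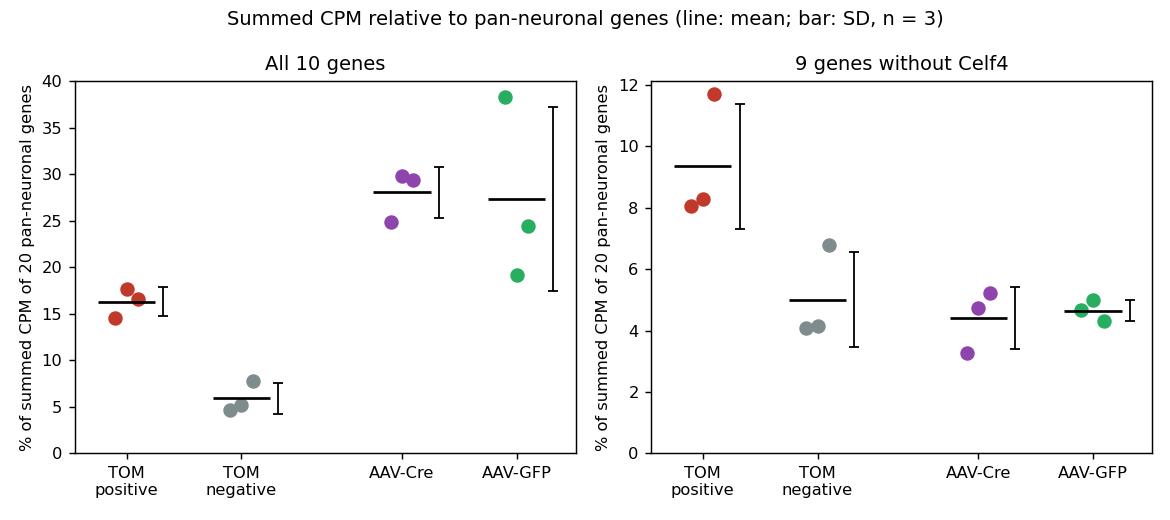
Summed CPM of the members as a percentage of the summed CPM of 20 pan-neuronal genes in each library, for all 10 members (left) and for the 9 without Celf4 (right). Points are libraries, lines are means and bars are SD (n = 3). TOM positive libraries lie above TOM negative ones in both panels, and the AAV groups overlap.

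The other RNA-binding protein genes were read from 3 lists. The first list held 8 paralogs of the members, Celf1, Celf2, Celf3, Celf6, Elavl1, Rbfox2, Khdrbs1 and Khdrbs3. Of these 0 passed in TOM positive against TOM negative cells with edgeR, DESeq2 or limma voom. The tools called 23.9%, 31.6% and 27.5% of all genes. At an unadjusted p under 0.05 each tool gave 1 of 8, Elavl1, against 36.4% of all genes with edgeR, 39.2% with DESeq2 and 40.7% with limma voom. The median log2 fold change of the paralogs was 0.12. Elavl1 (HuR, the Hu protein made in most cell types) was at 156 ± 12.3 CPM in TOM positive cells, against 202 ± 19 CPM in TOM negative cells (SD, n = 3 for both), with a log2 fold change of -0.38 ± 0.15 that did not pass (edgeR adjusted p = 0.113). Celf1 and Celf3 had log2 fold changes of 0.45 ± 0.31 and 1.32 ± 0.82. Without TOM positive replicate 2 the edgeR count was 1, Celf6, in a fit that called 3547 of 16311 genes tested.

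Of 9 other splicing regulators of brain 8 were tested, and 3 rose and 1 fell in TOM positive cells, with a median log2 fold change of 0.56. Of all genes tested, 10.4% rose and 13.4% fell. Qk, which encodes quaking, a regulator of myelin mRNAs, was at 1694 ± 208 CPM in TOM positive cells, against 359 ± 168 CPM in TOM negative cells, and its log2 fold change was 2.24 ± 0.33 (edgeR adjusted p = 0.00391). Mbnl2, a muscleblind splicing factor, was at 242 ± 29.6 CPM in TOM positive cells, against 67 ± 18 CPM in TOM negative cells, and its log2 fold change was 1.85 ± 0.23 (edgeR adjusted p = 0.00196). Ptbp2, the neuronal polypyrimidine tract-binding protein, was the third that rose (log2 fold change 1.49 ± 0.29), and Ptbp1, its counterpart in non-neuronal cells, fell by 1.52 ± 0.25 on the log2 scale (edgeR adjusted p = 0.00642). The oligodendrocyte markers (9.84% in TOM positive against 2.14% in TOM negative libraries) and 12 microglia markers (0.0719% against 2.58%) moved with these genes. The microglia markers summed to 0.0468% to 0.109% in TOM positive and 2.41% to 2.69% in TOM negative libraries, all 12 fell and none was at 0 in either group. Their part in the values of Qk, Mbnl2, Ptbp2 and Ptbp1 was not tested.

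Of 17 regulators of mRNA localization and translation 5 rose and 0 fell in TOM positive cells, with a median log2 fold change of 1.07. Over all genes tested 10.4% rose and 13.4% fell. Cpeb2, a cytoplasmic polyadenylation element binding protein, was at 63.2 ± 25.7 CPM in TOM positive cells, against 10.9 ± 5.26 CPM in TOM negative cells (log2 fold change 2.54 ± 0.49). Fxr1 and Fmr1, fragile X family genes, had log2 fold changes of 1.75 ± 0.38 and 2.20 ± 0.56, and Cpeb4 and Stau2 (a dendritic mRNA transport protein) had 2.60 ± 0.72 and 1.57 ± 0.41. The count was 0 without TOM negative replicate 2 and 1 (Cpeb2) without TOM positive replicate 1. It was 2 (Fmr1 and Cpeb2) without TOM negative replicate 3 and 3 (Fmr1, Cpeb2 and Stau2) without TOM negative replicate 1. Without TOM positive replicate 3 it was 5, of which 4 were higher and 1, G3bp1, was lower. Without TOM positive replicate 2 it was 4 (Fxr1, Cpeb2, Cpeb4 and G3bp2). The fits without TOM negative replicates 1, 2 and 3 called 2425 of 16120, 1511 of 16197 and 2684 of 16155 genes tested. Those without TOM positive replicates 1, 2 and 3 called 2518 of 16181, 3547 of 16311 and 2873 of 16115. With every library 3635 of 15228 genes were called.

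Between AAV-Cre and AAV-GFP cells, edgeR called 0 of the 8 paralogs, 8 splicing regulators and 16 localization regulators tested. Of all genes tested it called 2.6%, with 0.63% higher and 1.97% lower. At an unadjusted p under 0.05 there were 2, 2 and 0 genes of these 3 lists, where 18.8% of all genes had such a p. DESeq2 called 2, 1 and 0 and limma voom 0, 1 and 0, against 9.94% and 2.81% of all genes. Khdrbs3, a paralog of Khdrbs2, had 646, 1026 and 822 counts in AAV-Cre and 3302, 23263 and 1175 counts in AAV-GFP libraries (log2 fold change -3.54 ± 1.08, edgeR adjusted p = 0.132), and without AAV-GFP replicate 2 its log2 fold change was -1.20 ± 0.39. Rbfox2 had 43, 50 and 20 counts in AAV-Cre and 170, 83 and 334 counts in AAV-GFP libraries (log2 fold change -2.36 ± 0.80). Both paralogs were lower in every AAV-Cre library than in any AAV-GFP library, as were 18.6% of all genes tested. Mbnl2 averaged 309 ± 13.9 CPM in AAV-Cre and 135 ± 35.5 CPM in AAV-GFP cells (log2 fold change 1.20 ± 0.28, edgeR adjusted p = 0.0583), and passed with edgeR without scaling factors. The 1 splicing regulator called by DESeq2 was among Mbnl1, Srrm4 and Mbnl2, those at an unadjusted p under 0.05. For limma voom it was Mbnl1 or Mbnl2. Such a p was reached by 21% of all genes with DESeq2 and 21.7% with limma voom. Mbnl1 and Celf2 had log2 fold changes of 0.89 ± 0.37 and -1.03 ± 0.54, and that of Celf2 was -0.12 ± 0.24 without AAV-GFP replicate 2. Qk had 18957, 14842 and 14199 counts in AAV-Cre and 19996, 140254 and 11231 counts in AAV-GFP libraries, replicate 2 of AAV-GFP again standing apart, and its log2 fold change was -1.92 ± 0.93 with that library and 0.20 ± 0.24 without it. Cpeb4, G3bp1 and Fmr1, the localization genes with the smallest p, had log2 fold changes of 1.85 ± 1.00, -0.43 ± 0.25 and -0.81 ± 0.56. The median log2 fold change was -1.02 for the paralogs, -0.40 for the splicing regulators and 0.03 for the localization regulators. Among pan-neuronal genes 0 of 20 passed, and Syt1, Map2 and Nefh, those with the smallest p, had log2 fold changes of 0.76 ± 0.27, 0.68 ± 0.33 and -0.98 ± 0.56. Oligodendrocyte markers made up 6.01% ± 0.6 of AAV-Cre and 3.32% ± 1.73 of AAV-GFP libraries (5.34% to 6.5% against 1.41% to 4.79%), of which 3 of 12 rose and none was at 0. Microglia markers made up 0.586% to 1.09% of AAV-Cre and 0.263% to 0.436% of AAV-GFP libraries, with 1 of 12 higher and none at 0. Ependymal and tanycyte markers made up 0.00288% to 0.00361% of AAV-Cre and 0.0526% to 0.097% of AAV-GFP libraries, with 3 of 7 lower and Rax at 0 in AAV-Cre cells. Endothelial markers made up 0.00267% to 0.00399% against 0.0193% to 0.035%, with 1 of 9 lower and Cdh5 and Emcn at 0 in AAV-Cre cells. Blood genes made up 3.31e-05% to 0.00438% against 0.0671% to 0.415%, with 2 of 5 lower and Alas2 at 0 in AAV-Cre cells. Mural and fibroblast markers made up 0.00195% to 0.0039% against 0.00796% to 0.0104%, with 1 of 9 lower and Acta2 at 0 in AAV-Cre cells. The summed shares of oligodendrocyte, microglia, ependymal, endothelial, mural and blood markers did not overlap between AAV-Cre and AAV-GFP libraries. Those of astrocyte and oligodendrocyte precursor markers overlapped. The part of these cell types in the members' values was not tested.

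Other genes were ranked by how closely their pattern over the 12 libraries followed the mean of the 9 members tested in both tables. The measure was the root mean square difference of log2(CPM + 1), centred within each table, over 9477 genes with a mean of at least 10 CPM. Rbfox1 was the member nearest to that mean (0.35) and Khdrbs2 the farthest (1.00). The nearest other genes were Dynlt3 (0.21), a dynein light chain gene, Kif3a (0.24), a kinesin motor subunit gene, Ola1 (0.24), an ATPase gene, Rap1a (0.24), a small GTPase gene, and Zfr (0.24), a zinc finger RNA-binding protein gene. Dynlt3 averaged 122 ± 13.1 CPM in TOM positive, 30.4 ± 1.2 in TOM negative, 76.6 ± 8.77 in AAV-Cre and 100 ± 26.5 in AAV-GFP cells (SD, n = 3 each).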

How the data were processed

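RNA sequencing libraries of sorted cells (SMART-Seq mRNA LP kit, per the labels' protocols) were deposited by the authors as read counts for each gene symbol. Per the submitters' processing notes, FastQC, Trim Galore, STAR and featureCounts were used, with the mm10 build. Read pairs of the AAV libraries were counted, per the file headers, with featureCounts 2.0.1 on GENCODE vM30, with no strand set and without multi-mapping reads or reads over several genes. Reads in a stretch shared by a gene and an overlapping antisense gene therefore cannot be told apart, and were left uncounted. The TOM table has no such header, and no label says how its reads were counted. The 6 single AAV files equalled their columns in the joint table, and their exon lengths (other values deposited by the authors) were used for levels per kb. Coordinates are those of vM30, and the RefSeq windows are of another build. Exons of Elavl3, Celf5 and Nova1 overlap predicted genes (256, 543 and 310 bases), which had at most 8 counts in a table. No molecular identifiers are described, so intervals from counts cover counting error only.

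The 6 libraries of a comparison were fitted alone in edgeR 4.0.16 (R 4.3.3) after TMM scaling, keeping genes by filterByExpr (minimum count 10), and tested by quasi-likelihood (two-sided, Benjamini-Hochberg threshold 0.05). SE is from the F statistic. CPM used TMM-scaled library sizes. DESeq2 1.42.0 and limma voom 3.58.1 were alternatives, with other scalings, no filter, a replicate block and each library left out. Without scaling factors the fold changes of all genes shifted by a median of 0.26 (TOM) and 0.16 (AAV) on the log2 scale. Named genes were the members, the 3 genes of each other list with the smallest p, and the 5 nearest patterns. Others were named after their values were seen. Members, lists and tests were chosen with earlier results of these data known. No pair of libraries agreed within sampling noise (chi-square per degree of freedom at least 44.6).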

Additional observations from a re-analysis of the deposited data

How the results depend on the processing

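Celf4 and Elavl3 kept their direction and their call in all 14 alternative settings in TOM positive against TOM negative cells, with log2 fold changes of 4.01 to 4.46 and 2.58 to 2.99. The count of members past the threshold was 5 with DESeq2 and 2 to 3 with a library left out, and 2 or 3 in the other settings. The median log2 fold change of the tested members was 1.82 without TOM negative replicate 1 and 1.82 to 2.6 over the fits with a library left out. The number of members called in the AAV comparison was 0 in every setting. The labels do not say whether replicate numbers pair the libraries. Same-numbered deviations correlated at -0.09 to 0.04, which cannot show that the libraries are unpaired. With a replicate block 2 TOM members passed and 0 AAV members, and over all genes 1987 and 0, against 3635 and 400 without it. Over all genes the calls were 1511 to 3547 (TOM) and 0 to 296 (AAV) with a library left out, 4805 and 1531 with DESeq2, and 712 for AAV without a count filter. The 0 AAV calls under the block stand beside 2013 genes at an unadjusted p under 0.05.

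Of the alternative values of single members, 252 kept direction and side of the threshold, 7 passed it newly and 7 changed sign. Khdrbs2 was -1.36 with limma voom between TOM groups. In the AAV comparison, with a library left out, Celf4 ran from -0.05 to 0.44, Elavl4 from -0.21 to 0.53, Rbfox1 from -0.49 to 0.09, Nova2 from -1.52 to 0.27 and Khdrbs2 from -0.69 to 0.35. Members relative to pan-neuronal genes ran from -0.13 to 0.37 (AAV) and 1.35 to 1.72 (TOM), and the AAV value was -0.10 without Celf4, chosen after seeing the data. Share differences in percentage points between TOM groups ran from -0.495 to 4.91 (Elavl2), -6.64 to 15.5 (Elavl3), -15 to 1.73 (Elavl4) and -14.3 to 0.534 (Nova2), and Elavl4 ran from -7.35 to 7.17 between AAV groups. The localization list had 0 to 5 and the paralogs 0 to 1 calls between TOM groups with a library left out, and the splicing list had 1 between AAV groups without scaling factors. The cause of these changes was not tested. Counts were fewest for Celf5, with 2 summed counts over TOM positive and 13 over TOM negative libraries. They were also few for Rbfox3 and Elavl2 in TOM negative cells, with 36 and 50 counts.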
